A study of Saccharomyces cerevisiae with 18 samples.

Results

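The 10 genes described here are the phosphate transporters *PHO84* (YML123C) and *PHO89* (YBR296C), the phosphatases *PHO3* (YBR092C), *PHO5* (YBR093C) and *PHO8* (YDR481C), the polyphosphate genes *VTC1* (YER072W), *VTC3* (YPL019C) and *VTC4* (YJL012C), and *SPL2* (YHR136C) and *PHM6* (YDR281C), which are linked to phosphate supply. They were taken by their systematic names from the 7127 genes of the count table, and all 10 were found. RNA was sequenced from BY4741, a haploid laboratory strain of *Saccharomyces cerevisiae* of mating type a, in 18 libraries, with 3 replicates in each of 6 groups. The groups were *snf5Δ*, *snf2Δ* and wild type (wt) cells, each after 30 min in YPD + Cys (rich medium with 3 mM cysteine) and each in YPD (rich medium without added cysteine), all at 30 °C in log phase. *SNF2* encodes the ATPase of the chromatin remodeler Swi-Snf and *SNF5* another of its subunits, and in each mutant the gene is replaced by KanMX4. All 6 groups, wt included, share the deletions *his3Δ1*, *leu2Δ0*, *met17Δ0* and *ura3Δ0* of BY4741, so the control strain is itself unable to make methionine from sulfide, and each genotype was 1 strain. The question put to these genes was how their transcript levels differ between the mutants and wt in each medium, and how they respond to cysteine in each strain.

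Yeast cells take up inorganic phosphate through high-affinity transporters when it is scarce and through low-affinity transporters when it is plentiful, release it outside the cell with secreted acid phosphatases, and store it in the vacuole as polyphosphate. The PHO pathway couples these steps. When phosphate is scarce, the kinase made of Pho80 and Pho85 is inhibited by Pho81, and the transcription factor Pho4 enters the nucleus and activates its target genes together with Pho2. The *PHO5* promoter is a textbook case of a yeast promoter whose nucleosomes are remodeled upon activation.

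Pho4 binds the letters CACGTG, which are also the core bound by Cbf1, a regulator of sulfur genes. The promoters of 4 of the members that hold CACGTG and whose transcripts fell in at least 1 comparison are shown, with CACGTG in capitals. Each is read 5′ to 3′ on the strand of its gene, from 450 to 151 bases before the start codon, a stretch of 300 bases, and comes from the RefSeq copy of the R64 assembly, which the authors' build sacCer3 corresponds to.
*PHO84* at chrXIII:25951-26250, minus strand: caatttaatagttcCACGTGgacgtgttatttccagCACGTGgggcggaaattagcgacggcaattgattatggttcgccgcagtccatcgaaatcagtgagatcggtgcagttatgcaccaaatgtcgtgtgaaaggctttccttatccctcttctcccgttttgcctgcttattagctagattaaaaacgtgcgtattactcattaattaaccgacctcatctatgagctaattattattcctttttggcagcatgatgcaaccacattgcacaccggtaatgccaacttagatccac
*PHO89* at chrII:798673-798972, minus strand: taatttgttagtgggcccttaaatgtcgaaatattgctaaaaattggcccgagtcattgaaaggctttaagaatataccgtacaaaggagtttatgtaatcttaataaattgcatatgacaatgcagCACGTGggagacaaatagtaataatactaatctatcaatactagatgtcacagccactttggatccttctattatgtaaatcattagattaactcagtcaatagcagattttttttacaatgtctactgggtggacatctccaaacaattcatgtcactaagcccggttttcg
*PHO5* at chrII:431102-431401, minus strand: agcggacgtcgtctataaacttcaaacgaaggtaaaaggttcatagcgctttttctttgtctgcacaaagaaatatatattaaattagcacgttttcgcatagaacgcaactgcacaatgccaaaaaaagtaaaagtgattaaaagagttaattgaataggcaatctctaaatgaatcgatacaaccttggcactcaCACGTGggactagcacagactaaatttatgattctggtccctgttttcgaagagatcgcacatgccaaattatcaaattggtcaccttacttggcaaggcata
*VTC3* at chrXVI:517169-517468, minus strand: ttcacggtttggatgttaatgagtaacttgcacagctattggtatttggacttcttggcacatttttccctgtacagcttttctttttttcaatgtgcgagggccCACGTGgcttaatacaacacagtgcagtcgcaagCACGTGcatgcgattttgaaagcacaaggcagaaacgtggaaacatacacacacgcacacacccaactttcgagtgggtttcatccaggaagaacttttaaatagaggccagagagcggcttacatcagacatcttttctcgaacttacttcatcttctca
In these windows *PHO84* has 2 copies, which begin 436 and 414 bases before the start codon. *VTC3* also has 2, at 345 and 311 bases, while *PHO89* has 1 at 323 bases and *PHO5* has 1 at 253 bases. *SPL2*, *PHM6* and *VTC1* have 1 each, at 361, 279 and 157 bases. *PHO3*, *PHO8* and *VTC4* have none in the same window, although *PHO3* and *VTC4* also fell in at least 1 comparison. CACGTG is its own reverse complement, so both strands are read at once. It occurred in 7 of 10 members (70%), in 7 of 26 other genes of the phosphate pathway (26.9%) and in 280 of 6006 windows of nuclear protein-coding genes (4.66%). In the annotation, 213 bases of the *PHO84* window also lie in the open reading frame *YML122C* and all 300 lie in a non-coding RNA gene of the opposite strand. These are matches of letters and say nothing of binding in these cells, and the members were chosen as genes known for the pathway.

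Levels of different genes are given per length, as TPM from RSEM, a relative abundance scaled by gene length and to the same total in every library. In both mutants in YPD *VTC1* was first, with 55.7 TPM in *snf5Δ* and 44 TPM in *snf2Δ*, and *PHO8* was second, with 29.8 TPM in *snf5Δ* and 25.9 TPM in *snf2Δ*. *PHO84* stood eighth of 10, with 0.64 TPM (0.47 to 0.88) in *snf5Δ* and 0.703 TPM (0.08 to 1.81) in *snf2Δ*. Its range overlapped with that of *SPL2*, the next in order, in both mutants, and lay above that of *PHO89* in *snf5Δ*. In YPD + Cys *VTC1* and *PHO8* were again first and second in both mutants, and *PHO84* had 0.233 TPM (0 to 0.35) in *snf5Δ* and 0.127 TPM (0 to 0.29) in *snf2Δ*, ninth and last in order.

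In wt the order was different. In YPD + Cys *PHO3* was first with 43 TPM (27.98 to 51.44), followed by *VTC1* with 33.3 TPM and *PHO8* with 19.7 TPM, and *PHO84* was sixth with 4.39 TPM (0.99 to 9.09). In YPD *PHO3* was the highest, with a mean of 67.9 TPM (from 41.41 to 85.92 over 3 libraries), followed by *VTC1* with 41.6 TPM (37.38 to 49.55) and *PHO84* with 26.6 TPM (14.74 to 42.45). The ranges of these neighbours overlapped, as did those of *PHO84* and *PHO8*. *PHO8* followed with 18.9 TPM, *VTC4* with 17.2 TPM and *VTC3* with 12.4 TPM, and the ranges of *VTC4* and each of its neighbours overlapped. *PHO5* had 5.31 TPM (4.08 to 6.5), below *VTC3* and above the others in every wt YPD library. *PHM6*, *SPL2* and *PHO89* came last, with 1.48, 1.44 and 1.29 TPM and overlapping ranges. Levels of the short genes *SPL2*, *PHM6* and *VTC1* are less certain on this scale, since RSEM assigned them 0.402, 0.256 and 0.427 of the reads that the count table gives them, against a median of 0.813 over all genes tested.

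**Figure D1:**
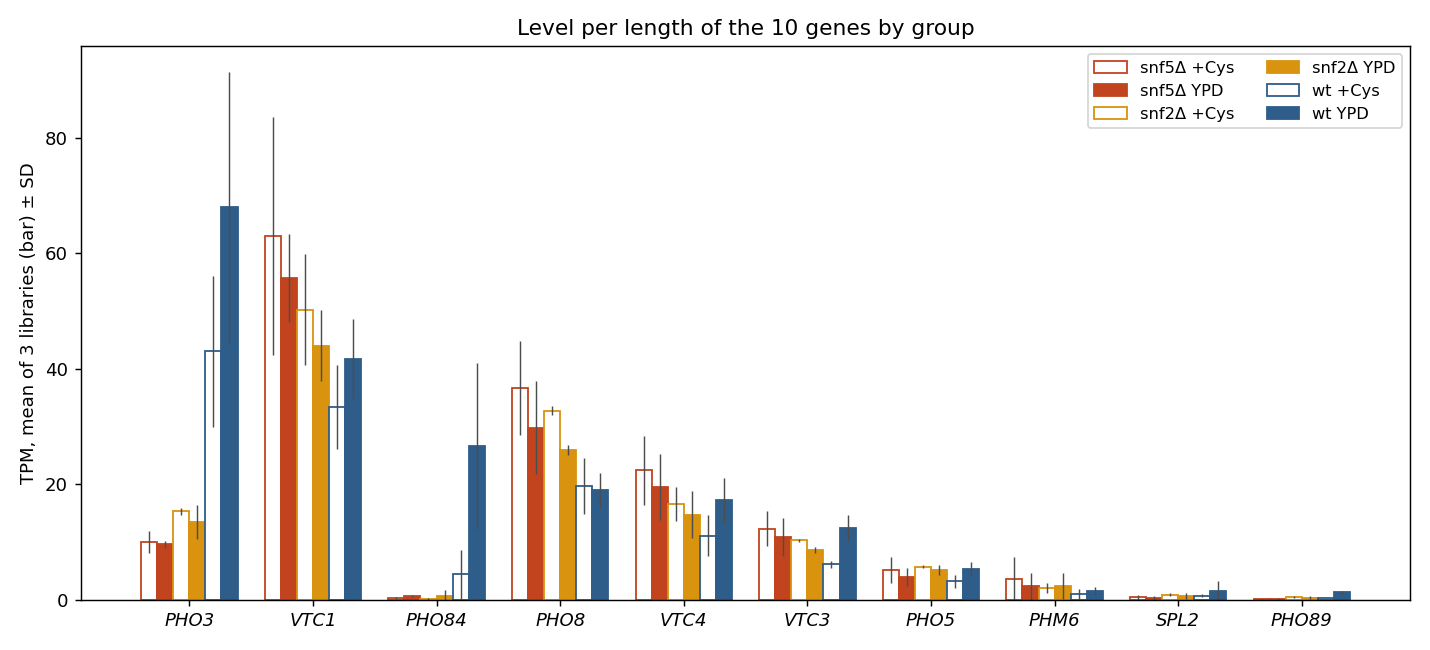
Level per length of the 10 genes, in TPM on a linear axis (bars, mean of 3 libraries; lines, SD), with open bars for YPD + Cys and filled bars for YPD. In YPD *PHO84* is at 0.64 TPM in *snf5Δ* and 0.703 TPM in *snf2Δ*, against 26.6 TPM in wt.

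Within a gene, groups were compared with counts. The libraries held 1329986 to 4845830 reads assigned to genes, given here as CPM (counts scaled to a common library size, with TMM factors that centre the bulk of genes). Each deleted gene was nearly without counts in its own mutant. *SNF5* had 0.0807 ± 0.14 CPM in *snf5Δ*, against 50.9 ± 4.97 CPM in wt, and *SNF2* had 3.24 ± 1.99 CPM in *snf2Δ*, against 209 ± 26.5 CPM in wt (SD, n = 3 each, YPD). The markers of mating type a (*MFA1*, *MFA2*, *STE2* and *BAR1*) were present in all groups, with lower means in both mutants than in wt. In YPD *STE2* averaged 153 CPM in *snf5Δ* and 219 CPM in *snf2Δ*, against 676 CPM in wt. Of the alpha markers, *MF(ALPHA)1* and *MF(ALPHA)2* averaged 0.383 CPM or less per group. *STE3*, also an alpha marker, averaged 4.87 CPM in *snf5Δ* and 10.4 CPM in *snf2Δ*, against 3.47 CPM in wt, in YPD. The deleted markers *MET17*, *URA3* and *LEU2* had 0 counts throughout, whereas *HIS3*, of which *his3Δ1* removes only a part, averaged 19.9 to 28.1 CPM per group. Reads that map to several places made up 44.6% to 71.4% in *snf5Δ* YPD replicate 3 and *snf2Δ* YPD replicates 2 and 3. The other 15 libraries had 3.02% to 28.6%. Several results in YPD are also given without the 3 libraries. The labels do not say whether replicates came from separate cultures, so p-values measure the spread between these libraries, which may be technical. All comparisons with wt in a medium share the same wt libraries. In RNA from whole cultures, fewer cells that express a gene and less RNA per cell cannot be told apart.

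**Figure D2:**
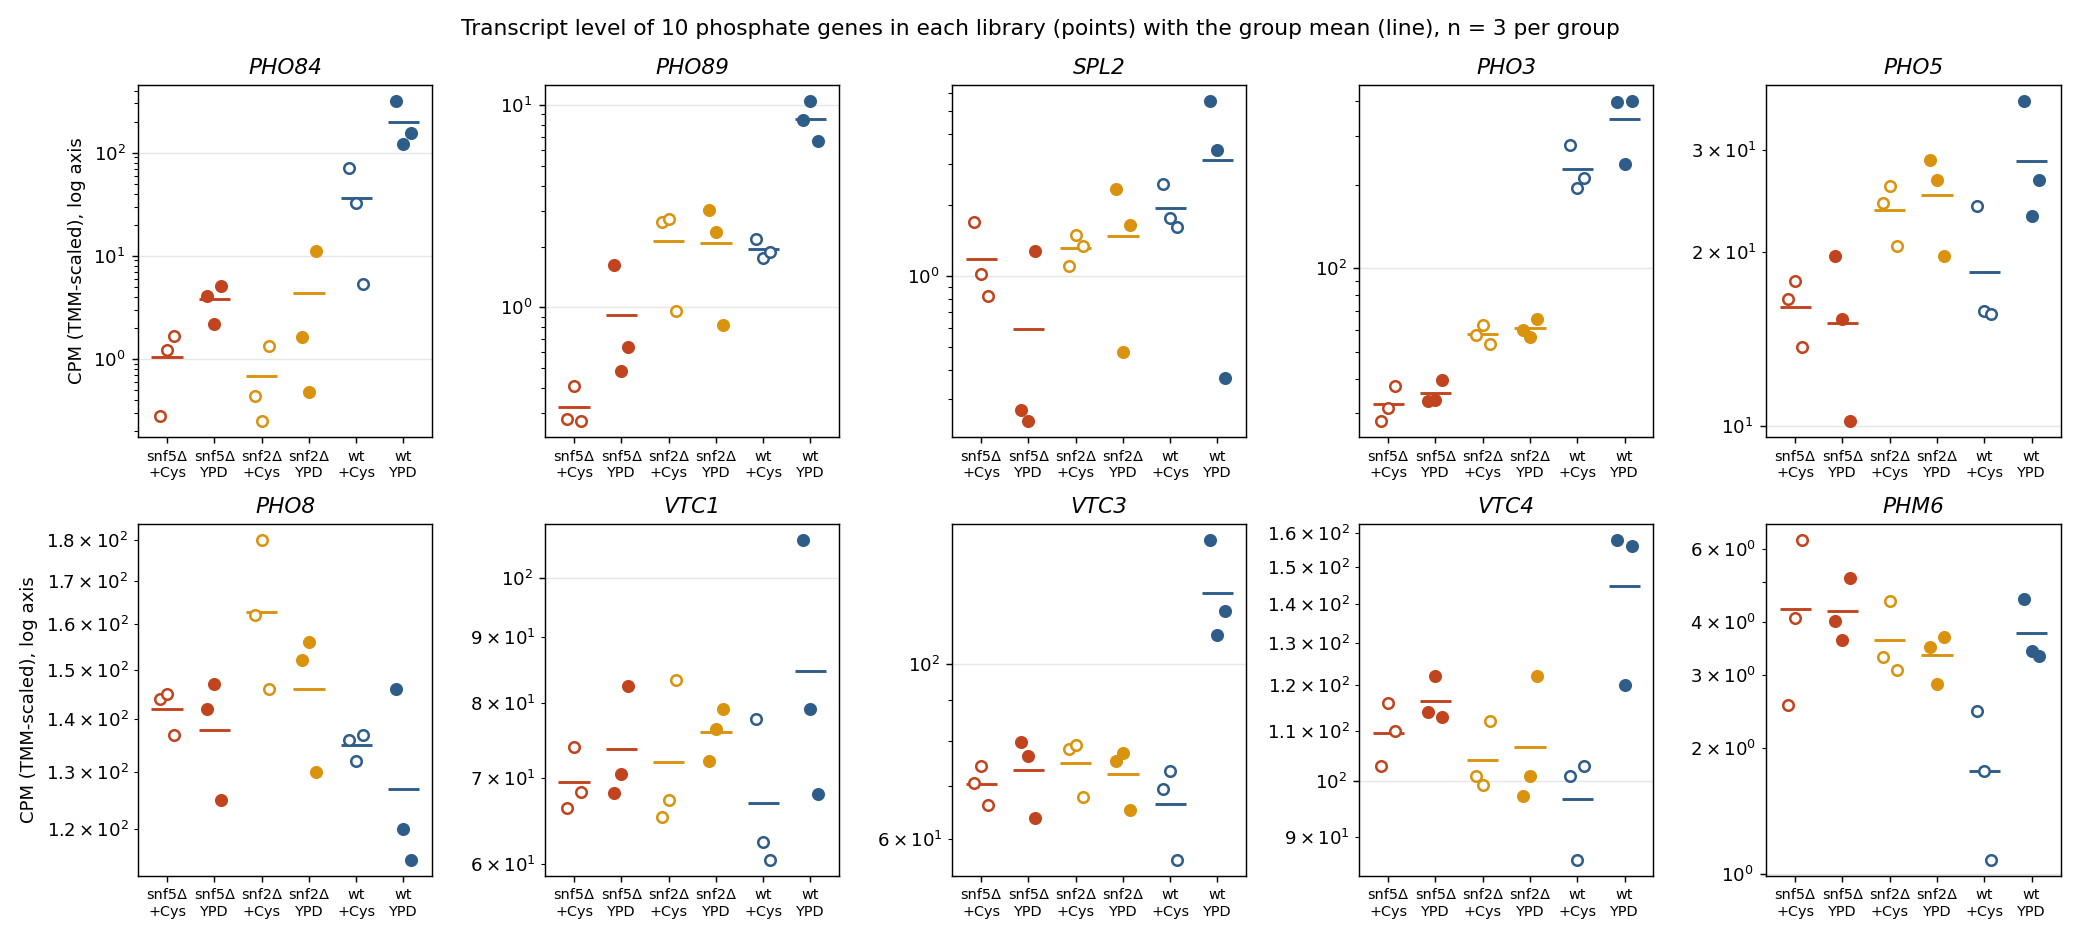
CPM of each gene in each library (points, log axis that differs between panels) with the group mean (line); open points are YPD + Cys and filled points YPD. *PHO84* and *PHO3* are lower in every mutant library than in every wt library of the same medium.

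*PHO84*, the high-affinity proton-coupled phosphate transporter, fell to 11.1 CPM or less in every mutant library in both media. In YPD it had 4.04, 2.18 and 5.11 CPM in *snf5Δ* and 1.63, 0.475 and 11.1 CPM in *snf2Δ*, against 317, 121 and 155 CPM in wt. No mutant library came near any wt library, although 1 *snf2Δ* library, with 27 of the 35 counts of its group, stood above the others. The log2 fold change was -5.82 in *snf5Δ* (SE 0.89, adjusted p = 7.3e-05, edgeR's quasi-likelihood test with Benjamini-Hochberg adjustment over all 5757 genes tested, as for all adjusted p here) and -5.58 in *snf2Δ* (SE 0.86, adjusted p = 1.4e-04), or 56.4-fold and 47.7-fold lower. Of 5757 genes, only 1 had a lower fold change than *PHO84* in each of these comparisons. Without *snf2Δ* YPD replicate 3 the value in *snf2Δ* was -7.29, and without the 3 libraries with many reads in several places it was -6.86, from 1 *snf2Δ* library that is assumed to vary like the other groups.

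In YPD + Cys *PHO84* had 0.281, 1.23 and 1.65 CPM in *snf5Δ* and 0.441, 0.25 and 1.34 CPM in *snf2Δ*, against 71.1, 32.6 and 5.38 CPM in wt. The wt libraries were spread widely, and still each was above every mutant library. On the log2 scale the change was -5.04 in *snf5Δ* (SE 1.24, adjusted p = 0.00121) and -5.59 in *snf2Δ* (SE 1.38, adjusted p = 8.7e-04). With 1 to 7 counts per mutant library the size of these differences is less certain than their direction. Leaving out wt YPD + Cys replicate 1 gave -4.08 in *snf5Δ* and -4.62 in *snf2Δ*, and leaving out *snf2Δ* YPD + Cys replicate 3 gave -6.55 in *snf2Δ*. The reference annotates a non-coding RNA on the opposite strand that overlaps *PHO84* and runs on into its promoter, and whether the counting used strand is not given in the sources used here, so antisense reads could be among these counts.

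*PHO89*, the sodium-coupled transporter, was a weakly expressed gene that fell in both mutants in YPD. It had 1.62, 0.484 and 0.639 CPM in *snf5Δ* and 3.03, 2.37 and 0.821 CPM in *snf2Δ*, against 8.47, 10.5 and 6.65 CPM in wt. All mutant libraries were below all wt libraries. The log2 fold change was -3.13 in *snf5Δ* (SE 0.54, adjusted p = 1.2e-04) and -1.95 in *snf2Δ* (SE 0.43, adjusted p = 0.00264). Without *snf5Δ* YPD replicate 1 the change in *snf5Δ* was -3.94, and without the 3 libraries with many reads in several places that in *snf2Δ* was -1.47 (adjusted p = 0.0852).

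In YPD + Cys the mutants stood apart in *PHO89*. It had 0.281, 0.409 and 0.274 CPM in *snf5Δ* and 2.65, 2.75 and 0.958 CPM in *snf2Δ*, against 2.18, 1.76 and 1.88 CPM in wt. The *snf5Δ* libraries, with 1 or 2 counts each, were below all others, and those of *snf2Δ* lay on both sides of wt. Relative to wt the log2 fold change was -2.44 in *snf5Δ* (SE 0.79, adjusted p = 0.0139) and 0.08 in *snf2Δ* (95% interval -0.90 to 1.06, adjusted p = 0.938).

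*PHO3*, the constitutive acid phosphatase of the periplasm, which is known to be regulated by thiamine and to release thiamine from its phosphates, fell in both mutants and media. In YPD it had 33.2, 33.4 and 39.6 CPM in *snf5Δ* and 59.8, 56.5 and 65.7 CPM in *snf2Δ*, against 396, 237 and 401 CPM in wt. The groups did not overlap, and the libraries of each mutant lay close together. This gave a log2 fold change of -3.30 in *snf5Δ* (SE 0.19, adjusted p = 7.5e-09) and -2.50 in *snf2Δ* (SE 0.18, adjusted p = 1.3e-07), or 9.82-fold and 5.67-fold lower.

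The same held for *PHO3* in YPD + Cys, with 28.1, 31.3 and 37.6 CPM in *snf5Δ* and 57.6, 62.5 and 53.3 CPM in *snf2Δ*, against 278, 194 and 212 CPM in wt. All mutant libraries were again below all wt libraries. The log2 fold change was -2.82 in *snf5Δ* (SE 0.19, adjusted p = 3.8e-08) and -1.98 in *snf2Δ* (SE 0.18, adjusted p = 1.2e-06). *PHO3* lies 446 bases downstream of *PHO5* on chromosome II, on the same strand, and the coding sequences are 86.5% identical (1215 of 1404 bases). Of 1330 windows of 75 bases, the length of a read, in *PHO3*, 42 (3.16%) also occur in *PHO5*, so few reads could not be placed in one of the 2 genes, and RSEM's expected counts gave -3.27 in *snf5Δ* and -2.50 in *snf2Δ* in YPD.

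*PHO5*, the secreted acid phosphatase that low phosphate induces, changed far less than its neighbour. In YPD it had 19.7, 15.3 and 10.2 CPM in *snf5Δ* and 28.9, 26.6 and 19.7 CPM in *snf2Δ*, against 36.5, 23.1 and 26.6 CPM in wt. Those of *snf5Δ* were below all wt libraries, and those of *snf2Δ* overlapped with wt. Its log2 fold change was -0.87 in *snf5Δ* (SE 0.24, adjusted p = 0.0126) and -0.18 in *snf2Δ* (95% interval -0.67 to 0.30, adjusted p = 0.628). The call in *snf5Δ* was lost without *snf5Δ* YPD replicate 3 (-0.68, adjusted p = 0.0554) and without wt YPD replicate 1 (-0.62, adjusted p = 0.0815), and without the 3 libraries with many reads in several places it was -0.68 (adjusted p = 0.0548). In YPD + Cys *PHO5* was not called in either mutant, with log2 fold changes of -0.20 in *snf5Δ* and 0.35 in *snf2Δ*.

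*PHO8*, the alkaline phosphatase of the vacuole, was not called in any comparison on the TMM scale. In YPD it had 142, 147 and 125 CPM in *snf5Δ* and 152, 156 and 130 CPM in *snf2Δ*, against 146, 120 and 115 CPM in wt, and the groups overlapped. The log2 fold change was 0.12 in *snf5Δ* (95% interval -0.13 to 0.36) and 0.20 in *snf2Δ* (-0.05 to 0.44). With library totals in place of TMM it was called higher in both (0.46 and 0.43), a scaling under which the median of all genes moved to 0.34 in *snf5Δ* and 0.26 in *snf2Δ*, in place of -0.01 and 0.02.

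The VTC genes encode the complex that makes polyphosphate at the vacuole, in which Vtc4 is the polymerase and Vtc1 and Vtc3 are partner subunits. In YPD *VTC3* had 79.8, 76.5 and 63.9 CPM in *snf5Δ* and 75.4, 77.3 and 65.3 CPM in *snf2Δ*, against 144, 109 and 117 CPM in wt. All mutant libraries were below all wt libraries. It fell by 0.74 on the log2 scale in *snf5Δ* (SE 0.13, adjusted p = 7.1e-04) and by 0.76 in *snf2Δ* (SE 0.13, adjusted p = 7.9e-04). With TPM in limma the values were -0.20 and -0.46 and not called, on a scale where the median of all genes lay at 0.44 in *snf5Δ* and 0.19 in *snf2Δ*.

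*VTC4* was lower by a smaller amount. It had 114, 122 and 113 CPM in *snf5Δ* and 97.3, 101 and 122 CPM in *snf2Δ*, against 158, 120 and 156 CPM in wt, and 1 wt library lay among those of the mutants. Against wt, the log2 fold change was -0.31 in *snf5Δ* (SE 0.12, adjusted p = 0.0724), which missed the threshold and turned to 0.03 with library totals and to 0.15 in limma on log2(TPM + 1). In *snf2Δ* it was -0.44 (SE 0.12, adjusted p = 0.0187). That call was lost without *snf2Δ* YPD replicate 1 or 2 or wt YPD replicate 1 or 3 (adjusted p from 0.0666 to 0.106) and without the 3 libraries with many reads in several places (-0.54, adjusted p = 0.064). *VTC1* was not called, with log2 fold changes of -0.21 in *snf5Δ* (95% interval -0.54 to 0.12) and -0.16 in *snf2Δ* (-0.49 to 0.17).

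In YPD + Cys no VTC gene was called in either mutant. *VTC3* had 70.8, 74.3 and 66.4 CPM in *snf5Δ* and 78.1, 79 and 67.8 CPM in *snf2Δ*, against 69.5, 73.3 and 56.5 CPM in wt. The groups overlapped, and the log2 fold change was 0.09 in *snf5Δ* (95% interval -0.19 to 0.37) and 0.17 in *snf2Δ* (-0.11 to 0.45). *VTC4* had log2 fold changes of 0.18 in *snf5Δ* (-0.08 to 0.44) and 0.11 in *snf2Δ* (-0.15 to 0.37), and *VTC1* of 0.06 and 0.11. In limma on log2(TPM + 1) *PHO8*, *VTC1*, *VTC3* and *VTC4* were called higher in *snf5Δ* in this medium, by 0.87, 0.87, 0.88 and 0.96, where the median of all genes lay at 0.73, and *VTC3* was called higher in *snf2Δ*, by 0.67, where that median lay at 0.46.

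*PHM6*, a gene of unknown function that low phosphate induces, was near the detection limit. In YPD + Cys it had 2.53, 4.09 and 6.31 CPM in *snf5Δ* and 3.31, 4.5 and 3.07 CPM in *snf2Δ*, against 2.45, 1.76 and 1.08 CPM in wt. The wt libraries, with 9, 6 and 4 counts, were below all mutant libraries. The log2 fold change was 1.27 in *snf5Δ* (SE 0.37, adjusted p = 0.0187) and 1.01 in *snf2Δ* (SE 0.38, adjusted p = 0.0611). The call in *snf5Δ* was lost without *snf5Δ* YPD + Cys replicate 3 (0.93, adjusted p = 0.0927) and without wt YPD + Cys replicate 3 (1.01, adjusted p = 0.0979). In YPD it was not called, with log2 fold changes of 0.12 in *snf5Δ* and -0.16 in *snf2Δ*.

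*SPL2*, an inhibitor of low-affinity phosphate transport, had 1 to 17 counts per library and was the member left out by the low-count filter. In YPD it had 1, 1 and 2 counts in *snf5Δ* and 10, 1 and 4 counts in *snf2Δ*, against 17, 12 and 1 counts in wt. The wt libraries alone spanned the whole range of the gene. In the alternative without the filter, from which it was decided only after the data were seen to read *SPL2*, the log2 fold change was -2.76 in *snf5Δ* (adjusted p = 0.0157) and -0.93 in *snf2Δ* (adjusted p = 0.333).

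**Figure D3:**
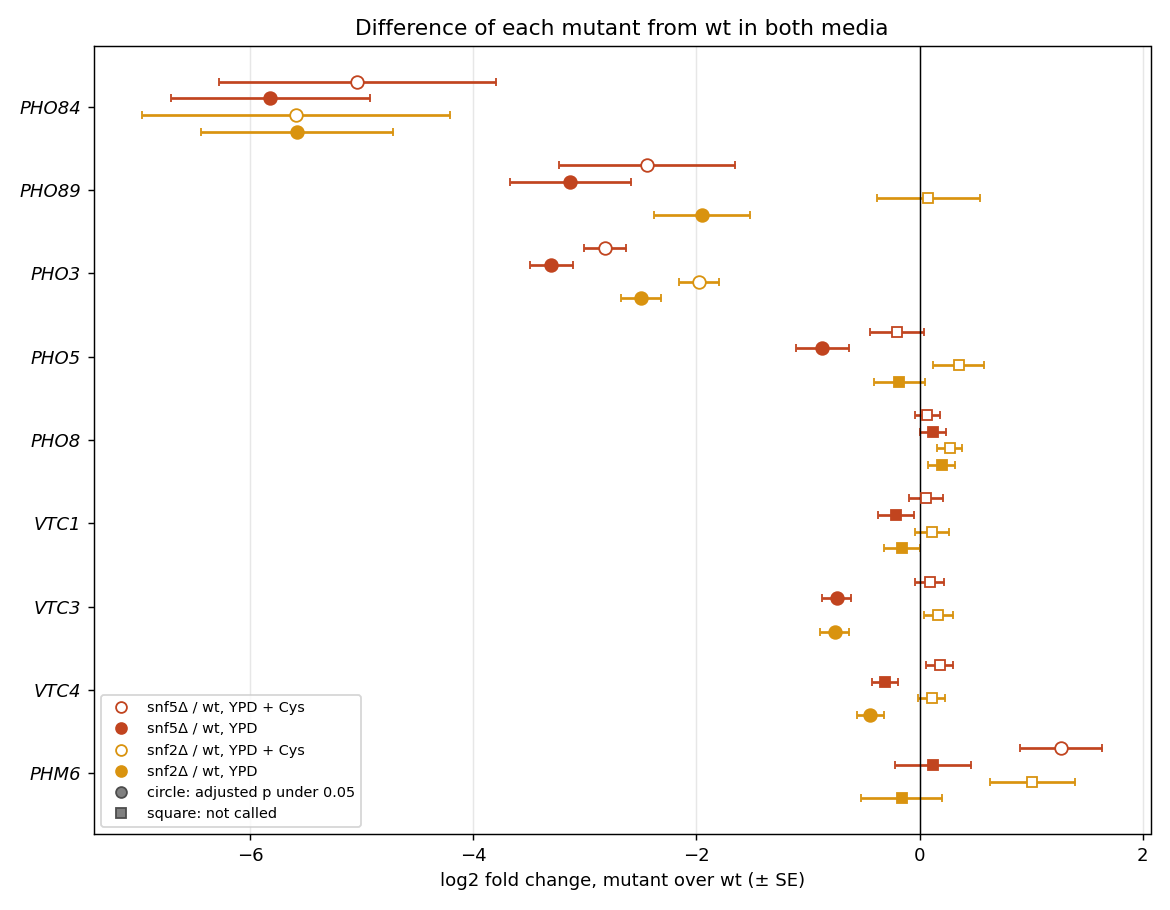
Log2 fold change of each mutant over wt (points; lines, ± SE of the fit) for the 9 genes tested, with open symbols for YPD + Cys and filled symbols for YPD; circles passed an adjusted p of 0.05 and squares did not. *PHO84* lies between -5.82 and -5.04 in all 4 comparisons, while *VTC3* is at -0.74 and -0.76 in YPD and at 0.09 and 0.17 in YPD + Cys.

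Counted together, 5 of the 9 members tested fell in *snf5Δ* in YPD (*PHO84*, *PHO89*, *PHO3*, *PHO5* and *VTC3*) and none rose, while 27% of all genes tested were called, 12% higher and 15% lower. In *snf2Δ* in YPD 5 of 9 fell (*PHO84*, *PHO89*, *PHO3*, *VTC3* and *VTC4*) and none rose, against 19.7% of all genes called, 7.89% higher and 11.8% lower. In YPD + Cys 3 of 9 fell in *snf5Δ* and *PHM6* rose, against 21.1% of all genes called, 9.73% higher and 11.3% lower. There 2 of 9 fell in *snf2Δ* (*PHO84* and *PHO3*) and none rose, against 19.3% of all genes called, 7.73% higher and 11.6% lower. The median log2 fold change of the 9 members was -0.74 in *snf5Δ* and -0.44 in *snf2Δ* in YPD, and 0.06 and 0.11 in YPD + Cys, against medians of all genes between -0.02 and 0.02. Calls in 1 mutant and not in the other do not show a difference between them, which was tested directly.

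Among 26 other genes of the phosphate pathway, 9 fell and 4 rose in *snf5Δ* in YPD, and 5 fell and 2 rose in *snf2Δ*. As shares these were 34.6% lower and 15.4% higher in *snf5Δ*, where 15% of all genes were lower and 12% higher, and 19.2% lower and 7.69% higher in *snf2Δ*, where 11.8% were lower and 7.89% higher. *PPN2*, a polyphosphatase, fell by 1.56 on the log2 scale in *snf5Δ* (SE 0.15, adjusted p = 1.0e-06) and by 1.79 in *snf2Δ* (SE 0.15, adjusted p = 3.4e-07). *VTC5*, a further subunit of the VTC complex, fell by 1.63 in *snf5Δ* and by 1.01 in *snf2Δ*, and *VTC2* by 0.58 and 0.40. *PHO81*, the inhibitor of the Pho80-Pho85 kinase, fell by 0.47 in *snf5Δ* and by 0.53 in *snf2Δ*, and *PHO90*, a low-affinity transporter, by 0.54 and 0.40.

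The genes that rose in both mutants in YPD were *DIA3*, which resembles acid phosphatases (2.30 in *snf5Δ* and 1.65 in *snf2Δ* on the log2 scale), and *PPN1*, another polyphosphatase (0.49 and 0.39). *PHO4*, the transcription factor of the pathway, rose in *snf5Δ* (0.94, SE 0.21, adjusted p = 0.00309), with 52.6 ± 2.07 CPM, against 27.4 ± 3.75 CPM in wt (SD, n = 3 each). *VIP1*, an inositol pyrophosphate kinase, also rose in *snf5Δ* (0.25). *PHO88*, an endoplasmic reticulum protein, and *GIT1*, a glycerophosphodiester transporter, fell in *snf5Δ* by 0.39 and 1.01. The acid phosphatases *PHO11* and *PHO12* fell there by 2.21 and 2.81, but their coding sequences are 99.7% identical and the share of reads between them is uncertain.

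In YPD + Cys *PPN2*, *VTC5* and *PHO90* were lower and *DIA3*, *PPN1* and *PHO4* higher in both mutants. *GIT1* was lower in *snf5Δ* (-1.35) and higher in *snf2Δ* (0.80), and *SYG1*, a membrane protein with similarity to phosphate exporters, was lower in *snf2Δ* (-0.68). That made 4 lower (15.4%) and 3 higher (11.5%) of 26 in *snf5Δ*, where 11.3% of all genes were lower and 9.73% higher, and 4 lower (15.4%) and 4 higher (15.4%) in *snf2Δ*, where 11.6% were lower and 7.73% higher.

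Cysteine was given to wt cells for 30 min, and 8 of the 9 members were lower in all 3 pairs of libraries with the same number, *PHO8* being the exception, while 19.8% of all genes tested were lower in all 3. *SPL2*, which was not tested, was lower in 2 of 3 pairs. *PHO89* had 2.18, 1.76 and 1.88 CPM in YPD + Cys, against 8.47, 10.5 and 6.65 CPM in YPD, and fell by 2.13 on the log2 scale (SE 0.41, adjusted p = 0.0158). *VTC3* had 69.5, 73.3 and 56.5 CPM in YPD + Cys, against 144, 109 and 117 CPM in YPD, and fell by 0.89 (SE 0.13, adjusted p = 0.00196). Neither gene overlapped between the media. *VTC4* had 101, 86.2 and 103 CPM in YPD + Cys, against 158, 120 and 156 CPM in YPD, also without overlap, and its log2 fold change of -0.58 was at the threshold (SE 0.12, adjusted p = 0.0501). These 2 calls compare with 0.434% of all genes called, 0.208% higher and 0.226% lower. The call of *PHO89* was lost without wt YPD replicate 2 or any 1 of the wt YPD + Cys replicates (adjusted p from 0.0683 to 0.0997).

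Same-numbered libraries of a strain deviated together between the media, and with the replicate number as a block within strain 7 of 9 members fell in wt: *PHO84*, *PHO89*, *PHO3*, *PHO5*, *VTC1*, *VTC3* and *VTC4*. Of all genes tested, 6.22% were then called, 3.09% higher and 3.13% lower. *PHO84* in YPD + Cys was at 0.224, 0.269 and 0.0347 of its level in the YPD library of the same number. Its log2 fold change was -2.54 with the block (SE 0.24, adjusted p = 3.5e-07), against -2.44 without it (SE 0.59, adjusted p = 0.145). The 3 ratios spread more widely than the SE with the block, so the size of this fall is less certain than that SE implies. Without wt pair 3, the pair with the lowest ratio, the blocked value was -2.04 (adjusted p = 1.2e-08).

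*PHO89* fell by 2.11 in the paired fit (SE 0.33, adjusted p = 1.0e-04), *VTC3* by 0.89 (SE 0.09, adjusted p = 1.1e-06) and *VTC4* by 0.58 (SE 0.07, adjusted p = 1.7e-05). *PHO3* fell by 0.57 (SE 0.09, adjusted p = 2.8e-04) with the block and had -0.59 without it (adjusted p = 0.333), and *PHO5* fell by 0.63 (SE 0.14, adjusted p = 0.00765) with the block and had -0.63 without it (adjusted p = 0.599). *VTC1* fell by 0.34 in the paired fit (SE 0.09, adjusted p = 0.0276). The calls of *PHO5* and *VTC1* were the ones that rested on single pairs. *PHO5* was not called without pair 1 (adjusted p = 0.0612) or pair 3 (adjusted p = 0.0549), and *VTC1* was not called without pair 1 (adjusted p = 0.242) or pair 2 (adjusted p = 0.136). *PHM6* had -1.08 with the block (SE 0.39, adjusted p = 0.0983) and *PHO8* 0.09 (SE 0.08, adjusted p = 0.568).

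The median log2 fold change of the 9 members was -0.63 in the paired fit, against 0.00 for all genes. Of the 26 other pathway genes, 0 were called without the block. With it, 3 fell (11.5%) and 1 rose (3.85%), against 3.13% of all genes lower and 3.09% higher. *PHO11* fell by 1.76, the low-affinity transporter *PHO87* by 0.29 and *PHO86*, which helps Pho84 leave the endoplasmic reticulum, by 0.25, while *SYG1* rose by 0.29. *PHO11* had only 8, 8 and 1 counts in wt in YPD + Cys, against 19, 13 and 18 in YPD. Its share of reads with the nearly identical *PHO12* is uncertain.

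**Figure D4:**
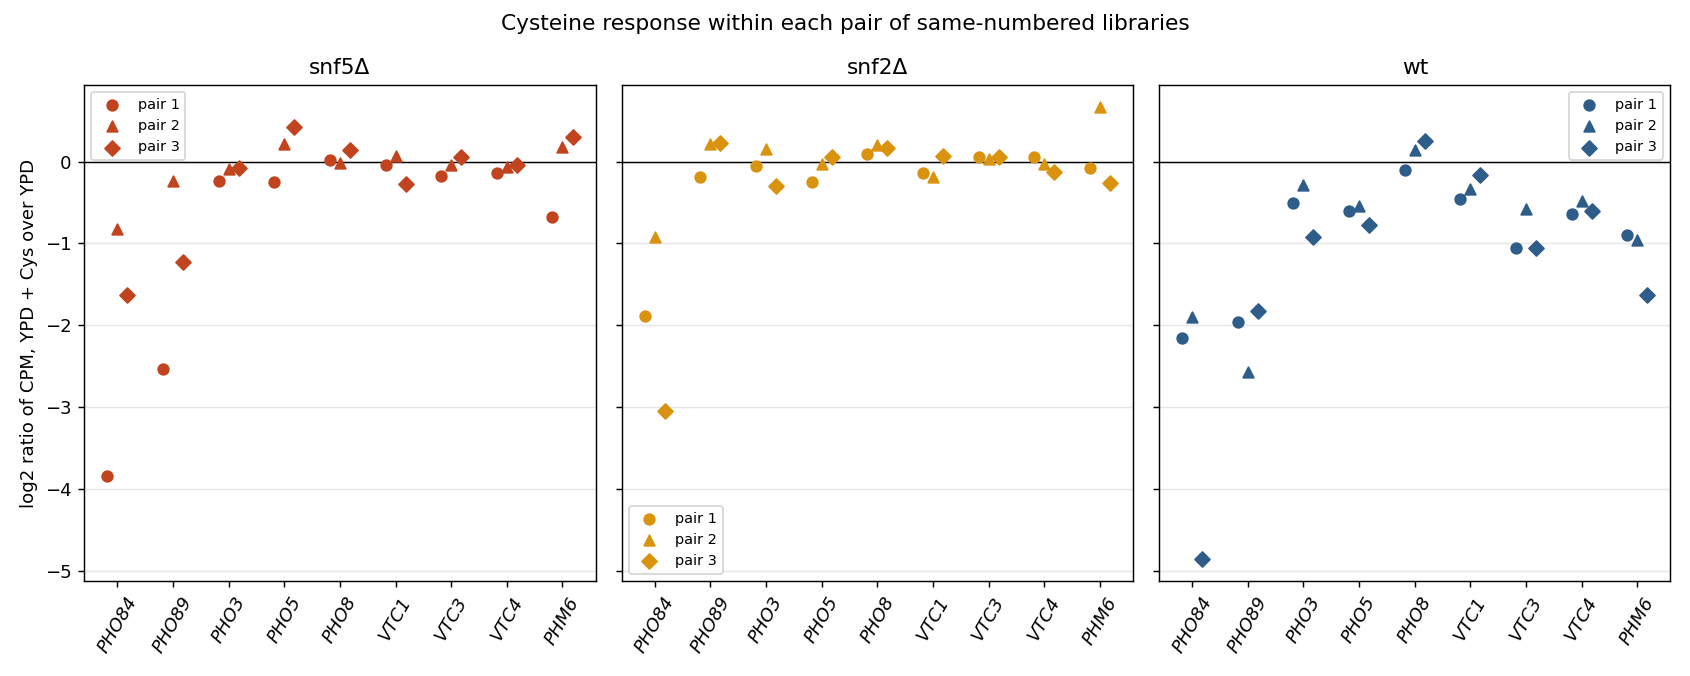
Log2 ratio of CPM in YPD + Cys over YPD within each pair of same-numbered libraries (points), for *snf5Δ*, *snf2Δ* and wt and the 9 genes tested, without *SPL2*. In wt all 3 pairs lie below 0 for every gene shown but *PHO8*, whereas the VTC genes of both mutants lie near 0 and *PHO84* lies below 0 in all 9 pairs.

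In the mutants 0 of 9 members were called after cysteine, with edgeR and also in the paired fit, and 0 had an unadjusted p under 0.05 without the block. Over all genes 0.903% were called in *snf5Δ* (0.0695% higher and 0.834% lower) and 0.643% in *snf2Δ* (0.0521% higher and 0.591% lower). In the paired fit these were 3.6% in *snf5Δ* (1.56% higher and 2.03% lower) and 5.19% in *snf2Δ* (2.17% higher and 3.02% lower). *VTC3* had log2 fold changes of -0.07 in *snf5Δ* (95% interval -0.35 to 0.22) and 0.04 in *snf2Δ* (-0.24 to 0.33), and *VTC4* of -0.09 (-0.35 to 0.17) and -0.03 (-0.29 to 0.23). *PHO3* had -0.12 in *snf5Δ* (-0.54 to 0.31) and -0.07 in *snf2Δ* (-0.47 to 0.33).

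In the mutants 4 of 9 members in *snf5Δ* (*PHO84*, *PHO89*, *PHO3* and *VTC4*) and 1 of 9 in *snf2Δ* (*PHO84*) were lower after cysteine in all 3 pairs, against 16.5% and 21.7% of all genes. *PHO84* was at 0.0696, 0.564 and 0.323 of its YPD level in *snf5Δ* and at 0.271, 0.526 and 0.121 in *snf2Δ*. Its counts were few, and it was not called in the paired fit, with log2 fold changes of -1.75 in *snf5Δ* (SE 1.06, adjusted p = 0.477) and -2.66 in *snf2Δ* (SE 1.16, adjusted p = 0.147). Without the block they were -1.66 (95% interval -4.64 to 1.31) and -2.45 (-5.65 to 0.75).

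Whether cysteine acted on a gene to a different degree in a mutant than in wt was tested as an interaction. Without the block 0 of 9 members were called in either mutant (against 0.33% of all genes for *snf5Δ* and 0.0869% for *snf2Δ*, all of them lower, with 0% higher). An unadjusted p under 0.05 was found in 3 members for *snf5Δ* and 4 for *snf2Δ*, and in 153 and 115 of all 5757 genes tested. In the paired fit *VTC3* and *VTC4* were called for both mutants, both higher. Of all genes, 1.46% were called for *snf5Δ*, 0.417% higher and 1.04% lower, and 0.556% for *snf2Δ*, 0.0869% higher and 0.469% lower. The response of *VTC3* in *snf5Δ* minus that in wt was 0.82 (SE 0.13, adjusted p = 7.9e-04, against 0.102 without the block), and in *snf2Δ* minus wt it was 0.94 (SE 0.13, adjusted p = 3.4e-04, against 0.101).

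For *VTC4* the difference of the response was 0.49 in *snf5Δ* (SE 0.10, adjusted p = 0.0117) and 0.55 in *snf2Δ* (SE 0.10, adjusted p = 0.00748) in the paired fit, and it was not called for *snf5Δ* without wt pair 1 or 3 (adjusted p = 0.0562 and 0.0572) or for *snf2Δ* without wt pair 3 (adjusted p = 0.0548). *VTC3* was called in each of these fits. Both genes averaged highest in wt in YPD. Their fall in wt, their lower levels in the mutants in YPD and these differences all share those libraries. *PHO89* had a difference of 2.11 in *snf2Δ* (SE 0.52, adjusted p = 0.0726), which missed the threshold. For *PHO84* the difference in the paired fit was 0.79 in *snf5Δ* (SE 1.09) and -0.12 in *snf2Δ* (SE 1.18), and without the block it was 0.78 (95% interval -2.45 to 4.01) and -0.01 (-3.44 to 3.43), so these data do not show whether its response differed.

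*snf5Δ* and *snf2Δ* were compared directly, without a block, although replicates 1 and 3 of the mutants deviated together by number. *PHO3* was lower in *snf5Δ* than in *snf2Δ*, by 0.84 on the log2 scale in YPD + Cys (SE 0.19, adjusted p = 0.0246) and by 0.79 in YPD (SE 0.20, adjusted p = 0.0399), and the 2 mutants did not overlap in either medium. *PHO89* was lower in *snf5Δ* in YPD + Cys by 2.52 (SE 0.77, adjusted p = 0.041), from 1 or 2 counts per *snf5Δ* library. These were 2 of 9 members in YPD + Cys, against 2.54% of all genes called, 1.37% higher and 1.16% lower, and 1 of 9 in YPD, against 2.99% called, 1.68% higher and 1.3% lower. The calls were fragile. In YPD *PHO3* was not called without any 1 of the 6 mutant libraries (adjusted p from 0.0505 to 0.184), and in YPD + Cys it was not called without replicate 1 or 2 of either mutant (adjusted p from 0.0726 to 0.126). *PHO89* was not called in YPD + Cys without replicate 1 or 2 of *snf2Δ* or any 1 replicate of *snf5Δ* (adjusted p from 0.121 to 0.173). Of the other pathway genes *GIT1* was called, lower in *snf5Δ* by 2.15 in YPD + Cys and by 1.37 in YPD. *PHO84* was not called, with 0.55 in YPD + Cys (95% interval -3.14 to 4.24) and -0.24 in YPD (-2.58 to 2.10).

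Across all 18 libraries, the genes whose log2 CPM followed a member most closely were found by Pearson's r, as a description, since the libraries share strains and media. *PHO84* was most like *IRC7* (r = 0.92), *PGA3* (0.90) and *SIM1* (0.90), with *PHO3* among its closest 20. *PHO3* was most like *UTR2* (0.99), *MNN1* (0.98) and *MRH1* (0.98). *VTC3* was most like *FRE7* (0.81) and then *PHO89* (0.77), and *PHO89*, *VTC4* and *PHO5* were among its closest 20 genes. *VTC4* was most like *PHO86* (0.85) and *PHO5* was most like *KEI1* (0.83), with *PHO12* among the next (0.82). Between members, r was 0.86 for *PHO84* and *PHO3*, 0.70 for *VTC3* and *VTC4*, 0.47 for *PHO3* and *PHO5*, and -0.66 for *PHO84* and *PHO8*.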

How the data were processed

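The deposited values were whole-number counts of reads per gene, which the authors made with STAR 2.7.3a on sacCer3 with Ensembl 98 genes, and, from RSEM 1.3.0, expected counts and TPM, which the authors scaled to transcript length and a common total. The libraries were ribo-depleted and sequenced as 75-base pairs. Here the counts were tested with edgeR 4.0.16 (R 4.3.3), in 1 quasi-likelihood fit of the 18 libraries with 6 group means, after filterByExpr, which kept 5757 of 7127 genes, 9 of the 10 members and all 26 pathway genes. Calls have a Benjamini-Hochberg adjusted p under 0.05 over all genes tested. TPM was tested with limma 3.58.1 on log2(TPM + 1) and log2(TPM + 0.1), expected counts were rounded, and DESeq2 1.42.0 was an alternative. The scripts were tested on simulated data.

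Same-numbered libraries in both media deviated together. The correlations of their deviations were 0.454 to 0.567 in wt, 0.39 to 0.755 in *snf2Δ* and 0.181 to 0.483 in *snf5Δ*, so the number was taken to pair them and was used as a block within strain. This pairing comes from the data and is not stated in the labels. Every member was described, and pathway genes were named where called. The members and lists were chosen with earlier results of these data known. Promoter windows came from RefSeq's R64 assembly.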

Additional observations from a re-analysis of the deposited data

Results flagged for a closer look

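The response to cysteine was called different between each mutant and wt in 2 of 9 members tested. The test was of the difference itself, with the replicate number as a block within strain (edgeR, adjusted over all genes). This pairing was inferred from the same data. Of all genes, 0.417% were called higher for *snf5Δ* and 0.0869% for *snf2Δ*, and 1.04% and 0.469% lower. For *VTC3* the response in *snf5Δ* minus that in wt was 0.82 on the log2 scale (adjusted p = 7.9e-04), and that in *snf2Δ* minus wt was 0.94 (adjusted p = 3.4e-04). For *VTC4* it was 0.49 in *snf5Δ* (adjusted p = 0.0117) and 0.55 in *snf2Δ* (adjusted p = 0.00748). The call of *VTC4* was lost without wt pair 1 or 3 for *snf5Δ* and without wt pair 3 for *snf2Δ*. Both differences share the wt libraries, and neither gene was called without the block in edgeR. DESeq2, fitted without a block, called 1 of the 10 members in each mutant, and 29 of 7127 genes for *snf5Δ* and 14 for *snf2Δ*. The mean of *VTC3* was 123 CPM in wt in YPD and 66.4 to 75 CPM in the other groups, and that of *VTC4* 145 CPM and 96.7 to 116 CPM. The differences therefore rest on the wt YPD libraries, as do the lower values of both genes in the mutants in YPD.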

How the results depend on the processing

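Counts of 1 to 37 per library limit what can be said of *PHO89*, *SPL2*, *PHM6* and, in the mutants, *PHO84*. The number of members called in *snf5Δ* against wt in YPD was 5, and became 3 with at least 10 counts in every library, which removes weakly expressed members from the test, 2, 2 and 3 in limma (log2(TPM + 1), log2(TPM + 0.1), and log2(TPM + 1) with no filter on low values), and 4 to 6 without single replicates. In *snf2Δ* in YPD it was 5, and became 3, then 2, 2 and 3 in the same settings, 3 without the libraries with over 40% of reads in several places, and 4 to 5 without single replicates. With library totals the number in YPD stayed 5 in each mutant, but with 1 higher and 4 lower in place of 0 higher and 5 lower. Of all 5757 genes tested, library totals called 2312 in *snf5Δ* and 1561 in *snf2Δ*, against 1554 and 1136 with TMM. Limma on log2(TPM + 1) called 1369 of 5722 genes in *snf5Δ* and 287 in *snf2Δ*. Without the libraries with over 40% of reads in several places the number of members stayed 5 in *snf5Δ*, of 10 then tested, although *PHO5* was not among them. In YPD + Cys the number was 4 in *snf5Δ*, and became 1 with at least 10 counts, 2 with only the groups compared and 3 to 4 without single replicates. It was 6 in each limma setting, with 4 higher and 2 lower in place of 1 higher and 3 lower. Over all genes these settings called 3557 of 5722, 3528 of 5722 and 3531 of 6525, against 1212 of 5757 in edgeR. In *snf2Δ* the number of members was 2, and became 4 with library totals (2 higher), 1 with at least 10 counts, 4 and 4 in limma on log2(TPM + 1) and log2(TPM + 0.1), and 2 to 3 without single replicates. Of all genes, library totals called 1146 of 5757 and these limma settings 932 and 988 of 5722, against 1113 of 5757 with TMM. For cysteine in wt the number of members was 2, and became 1, 0 and 1 in limma, 0 with only the groups compared and 1 to 3 without single replicates. With a replicate block it was 4, with the block within strain 7, and with that block but without 1 wt pair 5 to 6. Over all genes these settings called 36, 358 and 162 to 284, against 25 without a block. For the difference of the responses the number of members was 0 in each mutant, with 0 also without each single replicate, 1 in each with DESeq2, 1 in each with a replicate block and 2 in each with the block within strain, where leaving out 1 wt pair gave 1 to 2 in *snf5Δ* and 1 to 3 in *snf2Δ*. Of all genes, the block within strain called 84 for *snf5Δ* and 32 for *snf2Δ*, against 19 and 5 without a block.

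For *snf5Δ* against *snf2Δ* in YPD + Cys the number was 2, and became 1 with library totals, at least 10 counts, DESeq2, RSEM expected counts or only the groups compared, 0 in all 3 limma settings and 0 to 2 without single replicates. In YPD it was 1, and became 0 with library totals, in all 3 limma settings, with RSEM expected counts, without the libraries with over 40% of reads in several places and without each single replicate, and 2 with a replicate block. Between mutant and wt libraries, the deviations of number 1 had negative correlations in both mutants and media. Between the mutants the correlations for numbers 1, 2 and 3 were 0.363, 0.025 and 0.517 in YPD and 0.418, 0.052 and 0.532 in YPD + Cys. Numbers 1 and 3 of the mutants thus deviated together and number 2 did not, and why was not tested. The replicate block added *PHO5* in *snf5Δ* against *snf2Δ* in YPD (-0.70, adjusted p = 0.0316) and *VTC4* in *snf5Δ* against wt in YPD (-0.30, adjusted p = 0.0488). *VTC4* in that comparison, -0.31 and not called, turned to 0.03 with library totals and to 0.15, 0.16 and 0.15 in the limma settings, also not called. The shift of all genes is given beside some results, and the cause of these changes was not tested.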
